A study of Mus musculus with 12 samples.

Results

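The follicular genes Cxcr5, Bcl6, Il21, Tox2 and Tox were followed across 4 groups of mouse regulatory T cells (Tregs). They were taken by symbol from the deposited per-library expression files and are 5 of 23352 gene symbols there. Each symbol had 1 entry per file, and all 5 were among the 11431 genes tested.

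Follicular regulatory T cells are Tregs that enter the B cell follicle and restrain the germinal centre reaction. They share much of their expression programme with follicular helper T cells. CXCR5 is the receptor for the follicle chemokine CXCL13, and BCL6 is the transcriptional repressor that both cell types need. IL-21 is the cytokine by which follicular helper cells drive B cells and is better known as their product than as a product of Tregs. TOX2 and TOX are HMG-box transcription factors expressed in follicular and chronically stimulated T cells. EZH2, the gene deleted in this study, is the catalytic subunit of Polycomb repressive complex 2, which methylates histone H3 at lysine 27, and that complex acts mainly at CpG-rich promoters.

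The study sorted Tregs of spleen and lymph nodes into CD62Lhi and CD62Llo fractions. CD62L is the surface receptor by which the cells were sorted, and T cells lose it on activation. All mice were C57BL/6 females of the genotype Foxp3YFP-Cre/Foxp3WT, in which 1 of the X-linked Foxp3 alleles carries the YFP-Cre. The control group (HET) carried Ezh2fl/+ and the deleted group (KO) Ezh2fl/fl, so the controls also had 1 floxed Ezh2 allele and the same Cre. Because the Cre was heterozygous on the X chromosome, part of the Tregs of such a female express only the unmodified allele. The labels do not give the sort gate for YFP, the age or how many animals made a library. Each group had 3 libraries. Replicate 3 of HET CD62Lhi, which its label marks as left out for low read counts, was not used here, so n = 2 in this group and n = 3 in the others. The labels do not say that libraries came from separate animals, so the p-values measure the spread between these libraries, which may be technical.

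Values are FPKM, fragments scaled for the length of the transcript and for all mapped fragments of the library. Levels can be set side by side between genes, but between libraries they still depend on the scaling, as the counts of calls below show. The sum of FPKM was 625384 to 648694 in the CD62Lhi libraries used and 569609 to 608404 in the CD62Llo libraries. Each library held 10597 to 11024 symbols at 1 FPKM or more. The depth of the libraries is unknown, since the files used here give no counts. Ezh2 itself was at 12.7 and 12.5 FPKM in CD62Lhi and 18.2, 17.8 and 20.5 in CD62Llo of HET. In KO it was at 9.15, 11.5 and 11.02 in the first fraction and 12.5, 16.8 and 14.4 in the second. The KO libraries lay below the HET libraries in both fractions, but the difference was not called (CD62Llo: log2 change -0.36, limma adjusted p 0.113). FPKM of the whole gene checks the deletion of a floxed stretch only in part. Foxp3 was between 75.9 and 96.8 FPKM in all 11 libraries and did not separate the groups. KO CD62Llo replicate 3 stood apart from its group. Its Pearson r of log2(FPKM + 1) was 0.949 to 0.950 with its own group and 0.955 to 0.963 with the KO CD62Lhi libraries, and the member changes and the list counts that rest on it are given with and without it.

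Promoter sequences are printed to show the CpG content at the start of transcription of the members for which one was on hand. RefSeq windows of build GRCm38.p6, the mm10 sequence, covered 3 of the 5 members: 2 for Bcl6, 1 for Il21 and 5 for Tox2. Cxcr5 (mm10 chromosome 9, 44511787 to 44526421, minus strand) and Tox (chromosome 4, 6687386 to 6990723, minus strand) are given by position only. Bcl6 lies on chromosome 16 (23965052 to 23988612, minus strand) and Il21 on chromosome 3 (37222759 to 37232618, minus strand). Tox2 lies on chromosome 2, where the files' gene model runs from 163225454 to 163323102 on the plus strand, while the GENCODE gene starts at 163203125. The start site of the first Tox2 window lies 22327 bases upstream of the files' start. That start is the site of the most downstream window, so the files do not cover the upstream first exons. The stretches printed here are those upstream of annotated exons, 5′ to 3′ on the gene's own strand, with each CpG in capitals. They were chosen because they hold the CpG-richest and CpG-poorest starts among the members.
Bcl6, chr16:23988867-23989102, minus strand: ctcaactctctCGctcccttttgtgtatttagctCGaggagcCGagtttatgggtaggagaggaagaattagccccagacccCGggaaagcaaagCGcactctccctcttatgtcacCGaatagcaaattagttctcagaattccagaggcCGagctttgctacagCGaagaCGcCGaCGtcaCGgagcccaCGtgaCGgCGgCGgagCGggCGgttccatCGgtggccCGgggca
Il21, chr3:37232637-37232886, minus strand: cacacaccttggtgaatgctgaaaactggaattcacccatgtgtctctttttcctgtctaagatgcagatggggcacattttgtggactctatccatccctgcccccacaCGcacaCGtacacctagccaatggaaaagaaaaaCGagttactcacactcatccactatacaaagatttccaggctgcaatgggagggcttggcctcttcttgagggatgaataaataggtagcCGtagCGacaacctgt
Tox2 upstream start, chr2:163202877-163203057, plus strand: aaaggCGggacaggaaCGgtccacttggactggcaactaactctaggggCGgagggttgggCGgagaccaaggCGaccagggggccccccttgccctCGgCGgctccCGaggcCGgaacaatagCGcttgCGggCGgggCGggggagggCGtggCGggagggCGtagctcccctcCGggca
Tox2 downstream start, chr2:163225203-163225362, plus strand: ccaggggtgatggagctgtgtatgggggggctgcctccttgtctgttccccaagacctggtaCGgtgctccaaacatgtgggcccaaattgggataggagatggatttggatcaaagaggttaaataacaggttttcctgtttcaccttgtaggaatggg

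Bcl6 held 20 CpG in its printed stretch and the upstream Tox2 start 17, against 5 for Il21 and 1 for the downstream Tox2 start. Over the whole windows the ratio of observed to expected CpG was 1.05 for the Bcl6 window shown and 0.855 for the upstream Tox2 window. It was 0.281 for Il21 and 0.342 for the downstream Tox2 window. Over all 32851 RefSeq windows the median ratio was 0.384, with quartiles of 0.176 and 0.75. Of the windows not shown, the other Bcl6 window had 0.71 and the remaining Tox2 windows 0.863, 0.816 and 0.393, the last of these 1 base downstream of the window with 0.342. The upstream Tox2 windows and 1 of 2 Bcl6 windows were thus above the upper quartile, Il21 was below the median and the downstream Tox2 windows lay close to it.

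Motif letters were searched on both strands of the same windows. The NFAT core GGAAA, bound by the calcium-driven factors that follow T cell receptor signals, matched 3 times in the Il21 window, and 9.42% of all windows held at least 3. It matched 1 time in the Bcl6 window shown, 4 times in the other Bcl6 window and 1 time in the downstream Tox2 window, and 61.3% of all windows held at least 1 and 2.65% at least 4. The TCF/LEF core CTTTGA and the TATA core TATAAA each matched 1 time in the downstream Tox2 window. CTTTGA also matched 1 time in the other Bcl6 window. Of the 32851 windows 5257 held CTTTGA and 13.6% TATAAA. The upstream Tox2 window shown had 0 matches to any motif searched. The STAT letters TTCNNNGAA matched 1 time in the Bcl6 window shown and 3 times in the other, and 8.3% of all windows held at least 1 and 0.0335% at least 3. The AP-1 letters TGANTCA had 0 matches in these windows, against 7.81% of all windows. A match is a description of the letters only. Histone marks were not measured in these files, and these sequences do not bear on where Ezh2 acts.

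The question the fractions address is how activated, CD62Llo Tregs differ from resting, CD62Lhi Tregs. All 5 members were higher in CD62Llo than in CD62Lhi Tregs in both genotypes, and in neither genotype did the libraries of the fractions overlap for any of them. The size differed widely, from less than 2-fold for Tox to more than 20-fold for Il21 and Tox2. Within these bulk libraries, more follicular cells and more RNA per cell cannot be told apart.

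Cxcr5, the follicle homing receptor, stood at 11.5 and 8.87 FPKM in CD62Lhi and at 62.3, 53.8 and 39.0 FPKM in CD62Llo of HET mice. The KO mice had 9.99, 10.97 and 11.7 in CD62Lhi and 43.4, 54.6 and 32.1 in CD62Llo. The lowest CD62Llo library, KO replicate 3, was still above every CD62Lhi library. Cxcr5 rose from a mean of 10.2 ± 1.88 (SD, n = 2) to 51.7 ± 11.8 (n = 3) in HET, a ratio of 5.07. On log2(FPKM + 1) the change was 2.22 with a standard error of 0.23 (limma, adjusted p 1.4e-04). The ratio in KO was 3.98, with a log2 change of 1.87, a standard error of 0.21 and an adjusted p of 4.2e-04.

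Bcl6, the repressor, had 7.16 and 6.92 FPKM in HET CD62Lhi and 16.2, 19.3 and 12.4 in HET CD62Llo. The KO values were 6.58, 7.36 and 6.93 in CD62Lhi and 12.9, 12.7 and 10.9 in CD62Llo. CD62Lhi libraries were nearly level across both genotypes, and CD62Llo libraries spread more in HET than in KO. The increase was 2.27-fold in HET (log2 change 1.06, standard error 0.15, limma adjusted p 7.2e-04). In KO it was 1.75-fold (log2 change 0.72, standard error 0.13, adjusted p 0.00564).

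Il21, the cytokine, was close to undetected in CD62Lhi, at 0.0852 and 0.159 FPKM in HET and 0.0585, 0.137 and 0.179 in KO. In CD62Llo it had 4.99, 4.22 and 1.17 FPKM in HET and 2.98, 3.95 and 1.76 in KO. Its ratio of means was 28.3 in HET and 23.2 in KO, both set against CD62Lhi levels that rest on few fragments. Read as 2 SD to each side, the deposited Cufflinks intervals corresponded to roughly 8.35 to 23.3 fragments in these 5 libraries. On log2(FPKM + 1), which understates changes from such low levels, Il21 rose by 1.86 in HET (standard error 0.39, limma adjusted p 0.0061) and by 1.75 in KO (standard error 0.35, adjusted p 0.00813). With a pseudocount of 0.1 the same changes were 3.79 and 3.70.

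Tox2 had the largest change of the 5 on log2(FPKM + 1), while by ratio of means Il21 was slightly larger. Its FPKM was 0.914 and 0.691 in HET CD62Lhi and 23.9, 25.1 and 16.6 in HET CD62Llo. In KO it was 0.456, 0.602 and 0.929 in CD62Lhi and 12.96, 18.5 and 11.6 in CD62Llo. Every CD62Lhi library was below 1 FPKM, and every CD62Llo library was above 11. The ratio of means was 27.3 in HET and 21.7 in KO. The log2 change was 3.65 in HET (standard error 0.22, limma adjusted p 8.86e-06) and 3.19 in KO (standard error 0.20, adjusted p 3.1e-05). A pseudocount of 0.1 gave 4.59 and 4.26.

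Tox, the family member with a wider range of expression in T cells, was already at 25.5 and 29.7 FPKM in HET CD62Lhi and 28.6, 29.5 and 27.3 in KO CD62Lhi. In CD62Llo it had 45.8, 52.2 and 38.8 in HET and 37.2, 41.9 and 36.2 in KO. It was the most abundant member in CD62Lhi, and in CD62Llo Cxcr5 had reached its level. The rise was 1.65-fold in HET (log2 change 0.70, standard error 0.12, limma adjusted p 0.00204) and 1.35-fold in KO (log2 change 0.42, standard error 0.11, adjusted p 0.0257). The KO call for Tox was lost without KO CD62Lhi replicate 1, 2 or 3 (adjusted p 0.0710, 0.0582 and 0.0807) and without KO CD62Llo replicate 1 or 2 (0.0531 and 0.0964). The log2 change in those fits was between 0.35 and 0.44.

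**Figure D1:**
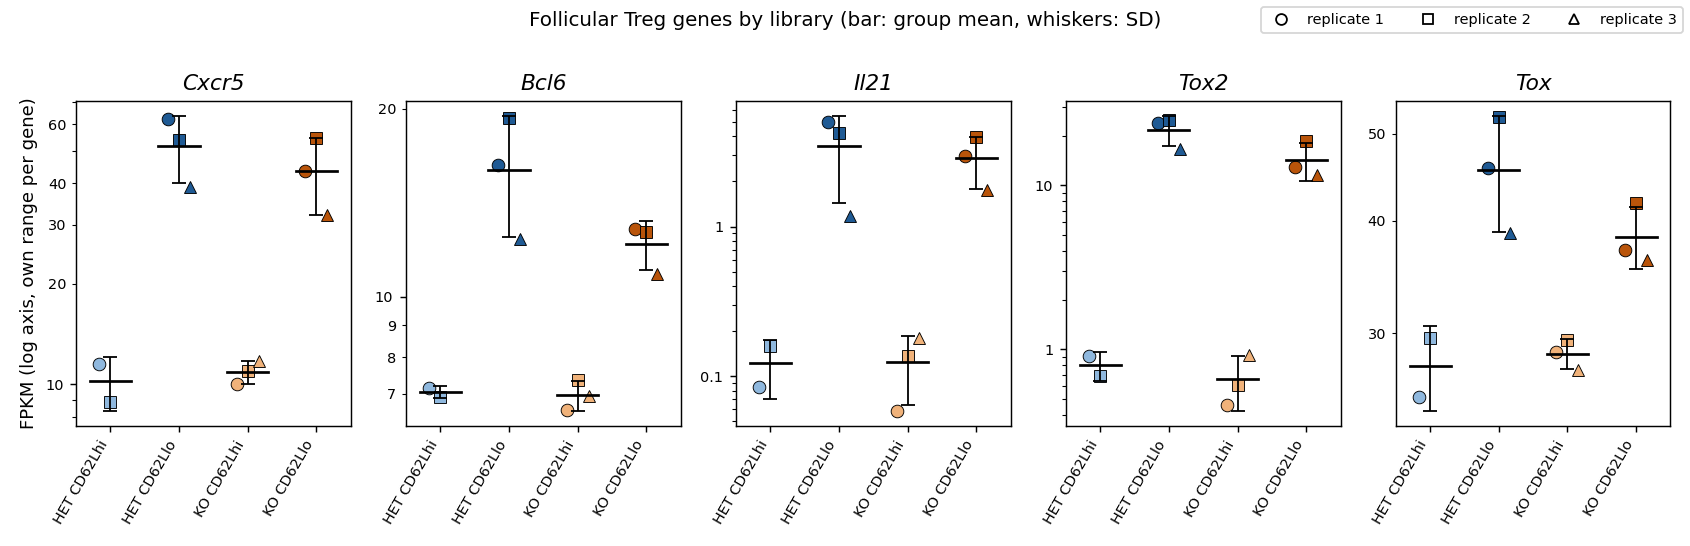
FPKM of the 5 members in each of the 11 libraries (log axis, a separate range for each gene), by group, with marker shape for the replicate, a bar for the group mean and whiskers for the SD. For each gene the CD62Llo libraries lie above the CD62Lhi libraries of both genotypes, and the triangles, replicate 3, are the lowest CD62Llo libraries.

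Many other genes also differed between the fractions, and the count of 5 of 5 members has to be read against them. In HET 18.8% of the tested genes were called higher in CD62Llo, and 36.1% had CD62Llo libraries above the CD62Lhi libraries without overlap. In KO these shares were 11.9% and 24.3%. The called genes numbered 2148 higher and 1015 lower in HET and 1365 higher and 487 lower in KO. That split depended on scaling, with 1431 and 1638 in HET and 954 and 797 in KO after quantile normalization. Median centring gave 1522 and 1862 in HET and 1007 and 987 in KO. Both rescalings moved the median of all genes by about -0.10 in HET, and all 5 members were still called higher under each. The median log2 change was 1.86 over the members and 0.07 over all tested genes in HET, and 1.75 and 0.05 in KO. Without KO CD62Llo replicate 3 the KO changes were 2.06 for Cxcr5, 0.79 for Bcl6, 1.98 for Il21, 3.32 for Tox2 and 0.46 for Tox, and all 5 were called.

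Cxcr5 and Bcl6 are also B cell genes, so B cell markers were read in the same libraries. Of 13 general B cell marker genes found in the files 11 were called lower in CD62Llo in each genotype and 0 higher. Their summed FPKM was 385 to 486 in HET CD62Lhi and 94.9 to 157 in HET CD62Llo, and 370 to 588 in KO CD62Lhi and 131 to 255 in KO CD62Llo. None of the 13 was at 0 throughout a group. Cd79a, a chain of the B cell receptor complex, had a mean of 28.1 FPKM in HET CD62Lhi and 3.33 in HET CD62Llo. Markers of germinal centre B and plasma cells went the same way as the members, with 4 of 6 tested genes called higher and 0 lower in HET and 2 higher and 0 lower in KO. Their sums over 9 genes were 82.9 to 90.1 FPKM in HET CD62Lhi and 124 to 139 in HET CD62Llo, and 82.7 to 87.4 and 101 to 119 in KO. The 4 genes were Irf4, S1pr2, Mki67 and Xbp1, of which activated T cells also express several, and the 2 in KO were Irf4 and S1pr2. Sdc1, a plasma cell marker, was not tested and had group means of 0.171 to 0.475 FPKM. Of 7 tested CD8 T and NK cell markers 5 were called lower and 1 higher in each genotype. The part of B cell RNA in the Cxcr5 and Bcl6 levels was not tested. Sums over 11 myeloid and dendritic cell markers, mostly Lyz2, were 11.8 to 23.5 in HET CD62Lhi and 45.5 to 95.4 in HET CD62Llo, and 12.2 to 17.5 and 30.3 to 247 in KO, and their part in the member levels was not tested. Among CD62Llo libraries KO replicate 3 had the lowest myeloid sum, the highest B cell sum and the lowest Cxcr5, Bcl6, Tox2 and Tox. Il21 was lowest in HET replicate 3.

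The comparison of KO with HET asks what loss of Ezh2 did to these genes. In CD62Lhi Tregs no member differed beyond the spread. The libraries of the genotypes overlapped for all 5, a description only, since the share over all genes is not given here. The difference on log2(FPKM + 1), with its 95% interval, was 0.10 (-0.43 to 0.62) for Cxcr5 and -0.02 (-0.35 to 0.32) for Bcl6. It was 0.00 (-0.87 to 0.87) for Il21, -0.12 (-0.61 to 0.37) for Tox2 and 0.05 (-0.22 to 0.31) for Tox. The limma test called 0.0% of all genes in this comparison, while 328 of 11431 had an unadjusted p below 0.05. A fit on the 2 CD62Lhi groups alone called 5 genes and 0 members. For Cxcr5, Il21 and Tox2 the intervals include changes as large as the 0.42 by which Tox rose between the KO fractions.

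In CD62Llo Tregs the KO mean was below the HET mean for all 5 members, and 0 of 5 were called, where 4.6% of all genes were called and 3.25% were called lower. The KO and HET libraries overlapped for each of them, while 13.7% of all genes had KO libraries below the HET libraries without overlap. Tox2 had the largest difference, from a mean of 21.9 ± 4.59 (SD, n = 3) in HET to 14.4 ± 3.67 (n = 3) in KO, that is -34.3%. Its log2 difference was -0.58 with a 95% interval of -1.02 to -0.14 (limma, adjusted p 0.144). Bcl6 differed by -23.9% (log2 difference -0.35, interval -0.65 to -0.05, adjusted p 0.191). For these 2 genes the interval of the single gene lay below 0, but the adjustment over all genes left no call.

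Cxcr5 differed by -16.1% (log2 difference -0.25, interval -0.72 to 0.21, limma adjusted p 0.559) and Tox by -15.8% (log2 difference -0.23, interval -0.47 to 0.00, adjusted p 0.270). Il21 differed by -16.4% in mean FPKM (log2 difference -0.11, interval -0.89 to 0.67, adjusted p 0.902), and its direction turned when HET CD62Llo replicate 1 or 2 or KO CD62Llo replicate 3 was left out (0.17, 0.07 and 0.12). The order of the groups was the same for each member, with HET CD62Llo highest, KO CD62Llo next and both CD62Lhi groups below. Within each fraction the neighbours in that order overlapped.

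Single libraries decided how close these differences came to a call. Without HET CD62Llo replicate 3, Bcl6 was called lower in KO (log2 difference -0.51, limma adjusted p 0.0323). Without KO CD62Llo replicate 2, Tox2 was called lower (-0.76, adjusted p 0.0495). Without KO CD62Llo replicate 3, the differences were -0.06 for Cxcr5, -0.28 for Bcl6, 0.12 for Il21, -0.45 for Tox2 and -0.19 for Tox, with 0 of 5 called. The number of all genes called in this comparison ranged from 182 without HET CD62Llo replicate 2 to 610 without KO CD62Llo replicate 2, against 526 with all 11 libraries. It was 184 without KO CD62Llo replicate 1, 284 without KO CD62Llo replicate 3 and 303 without HET CD62Llo replicate 3. Of the 526, 155 were higher and 371 lower. Quantile normalization gave 237 and 310 and median centring 226 and 281.

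The change between fractions was smaller in KO than in HET for every member, but the test of that difference called 0 of 5. It was -0.46 for Tox2 (limma, adjusted p 0.752), -0.35 for Cxcr5 (0.832), -0.33 for Bcl6 (0.724), -0.28 for Tox (0.710) and -0.11 for Il21 (0.973), whose sign turned in the same fits as above. Of all 11431 genes 0.00875% were called, which is 1 gene, and 868 had an unadjusted p below 0.05. The 2 fraction comparisons and the 2 genotype comparisons use the same libraries, so their values are given side by side and are not independent of each other.

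**Figure D2:**
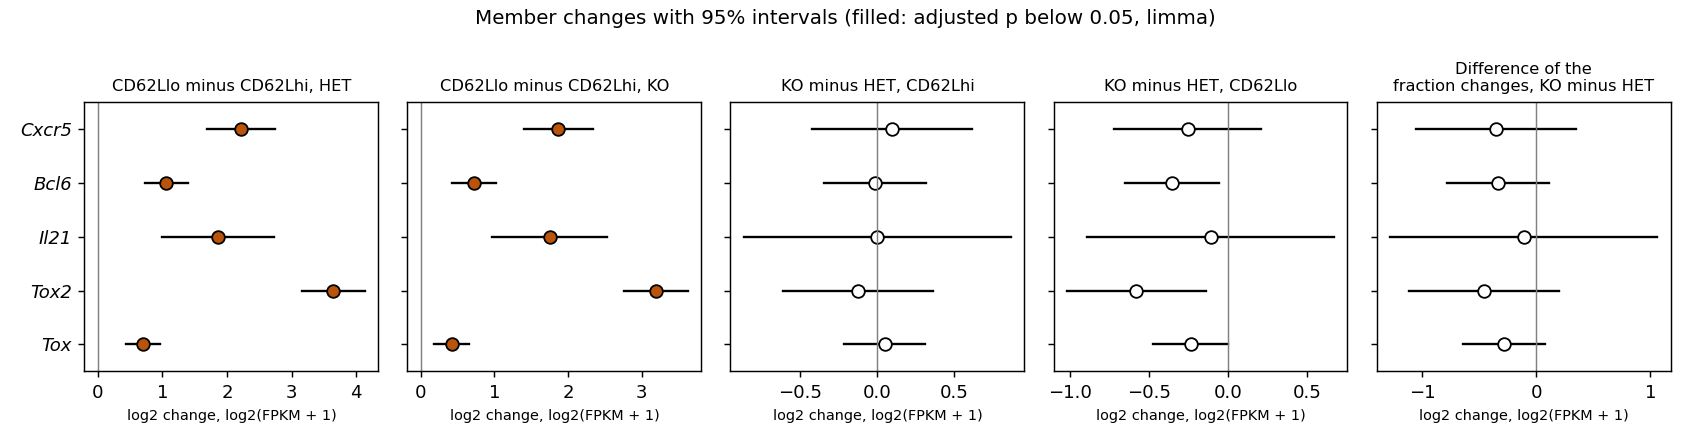
Change of each member on log2(FPKM + 1), as a point with its 95% interval, in the 5 comparisons (each panel has its own horizontal range); filled points had an adjusted p below 0.05 in limma. All 5 members are filled in both fraction comparisons, and none in the genotype comparisons or in the difference of the fraction changes.

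The members varied together among the CD62Llo libraries. In HET CD62Llo replicate 3 all 5 were the lowest of the 3 libraries, at 67.2% of the mean of the other 2 for Cxcr5, 69.5% for Bcl6, 25.5% for Il21, 67.8% for Tox2 and 79.1% for Tox. KO CD62Llo replicate 3 was likewise the lowest for all 5, at 65.5%, 85.2%, 50.7%, 73.7% and 91.6%. Of the 2148 genes called higher in HET CD62Llo, 34.5% were lowest in replicate 3, and of the 1365 in KO, 55.9% were. The members were thus low in a HET library in which CD62Llo genes as a whole were not.

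Some other activation and follicular genes did not share the drop in HET CD62Llo replicate 3, and some did. These genes were picked for display after their values were seen. Icos, the co-stimulatory receptor, was at 131 FPKM in that library against 92.5 and 124 in the other 2. Maf, a transcription factor of follicular and cytokine-producing T cells, was at 88.5 against 78.0 and 89.8. Prdm1, which encodes BLIMP1, the antagonist of BCL6, was highest there at 7.32 against 4.35 and 6.57. Pdcd1, which encodes PD-1, was lowest there at 68.7 against 71.9 and 125. Also lowest in that library were Il4 (2.95 against 4.03 and 5.54), Tcf7 (233 against 344 and 281) and Ascl2 (0.200 against 1.42 and 2.46). The B cell marker sum of KO CD62Llo replicate 3, 255, was the highest of its group, against 131 and 173, while that of HET CD62Llo replicate 3, 106, lay between 94.9 and 157. The part of B cell RNA in the low member values of replicate 3 was not tested.

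**Figure D3:**
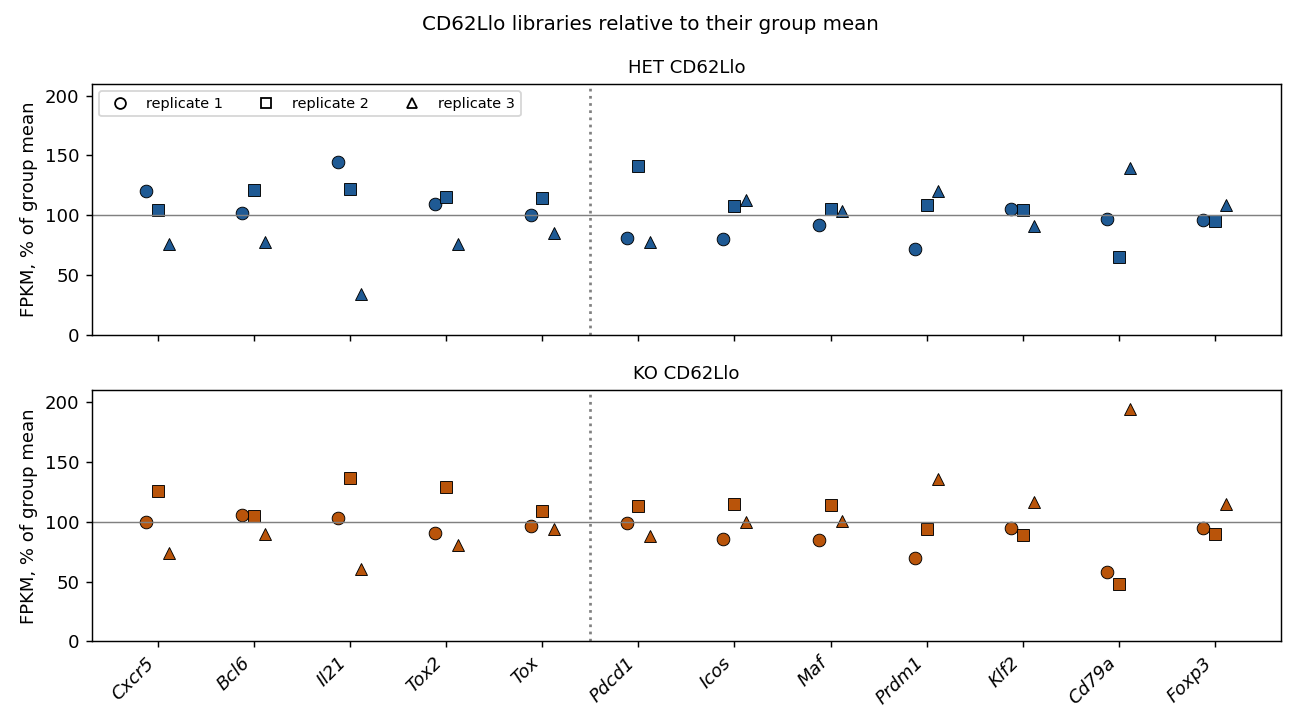
FPKM of each CD62Llo library as a percentage of its group mean, HET above and KO below, for the 5 members (left of the dotted line) and 7 other genes, with marker shape for the replicate. Replicate 3 (triangle) is lowest for all 5 members in both groups, while Icos is highest there in HET and Cd79a in both.

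By a fixed rule the 4 tested genes with the most similar pattern across the 11 libraries were listed for each member, by Pearson r of log2(FPKM + 1). These values share libraries and the contrast of the fractions, so they are a description. For Tox2 they were Gpm6b (r 0.997), Angptl2 (0.997), Synpo (0.996) and Tnfsf11 (0.993), the last of which encodes the cytokine RANKL. Angptl2 went from a mean of 1.62 FPKM in HET CD62Lhi to 29.2 in HET CD62Llo, and from 1.40 to 20.0 in KO. Cxcr5 was closest to Bag3 (0.992), Mafg (0.992), Tox2 (0.990) and Tspan5 (0.990). Another member was thus among the 4 nearest genes of Cxcr5. Bcl6 was closest to Ntng2 (0.993), Baiap3 (0.990), Ptpn11 (0.988), which encodes the phosphatase SHP2, and Kcna3 (0.988), a potassium channel of T cells. Il21 was closest to Ptpn11 (0.980), Tshz1 (0.977), Acp2 (0.974) and Cxcr5 (0.970). Tox was closest to Cd4 (0.983), Zc3h7b (0.980), Rnaset2b (0.977) and Tyms (0.977). Cd4, the co-receptor of helper and regulatory T cells, rose with a small fold, from 198 to 284 FPKM in HET.

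Other genes tied to the follicular programme were read from 5 lists, with the members taken out. The lists include 11 genes that oppose the programme, so the pooled counts mix genes of both kinds. Of 48 listed genes 47 were tested. In HET 21 were called higher and 12 lower in CD62Llo, which is 70.2% of the 47 where 27.7% of all tested genes were called. In KO 15 were higher and 5 lower, 42.6% where 16.2% of all genes were called. Median centring gave 15 and 10 in KO, and without KO CD62Llo replicate 3 the KO counts were 17 and 6. These lists were chosen with earlier results of the data known.

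Among 11 other transcription factors of follicular T cells 5 rose and 2 fell in HET CD62Llo, and 4 rose and 1 fell in KO. Maf went from a mean of 6.15 FPKM in CD62Lhi to 85.4 in CD62Llo in HET and from 6.05 to 50.3 in KO (limma adjusted p 1.02e-05 and 4.61e-05). Batf, an AP-1 family factor needed for follicular helper cells, went from 45.2 to 113 in HET and from 37.7 to 74.9 in KO. Irf4 and Nfatc1, which act downstream of the T cell receptor, rose in both genotypes. Lef1, which with TCF1 acts early in follicular helper differentiation, fell in both, from 114 to 51.0 FPKM in HET. Tcf7, the gene of TCF1, had 233 to 344 FPKM in HET CD62Llo and 291 to 402 in KO CD62Llo and was not called in any comparison.

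Of 11 surface and signalling molecules 9 rose in HET CD62Llo and 7 in KO, and 0 fell. Without KO CD62Llo replicate 3, 9 rose in KO. Icos went from 18.4 to 116 FPKM in HET and from 15.4 to 52.6 in KO. Pdcd1 went from 15.8 to 88.6 and from 11.4 to 49.8. Sh2d1a, which encodes the adaptor SAP that sustains T cell contact with B cells, went from 64.7 to 151 and from 54.9 to 107. Slamf6, a receptor that signals through SAP, went from 53.6 to 102 in HET and from 54.2 to 76.5 in KO.

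Positioning receptors other than Cxcr5 were mixed, with 2 of 7 higher and 4 lower in HET and 1 higher and 1 lower in KO. S1pr2, which holds cells in the germinal centre, rose from 3.96 to 9.37 FPKM in HET and from 3.10 to 5.32 in KO. S1pr1, the receptor for exit into lymph, fell from 193 to 65.1 in HET and from 200.2 to 107 in KO. Ccr7, which keeps T cells in the T zone, fell in HET from 199 to 129 and was at 212 and 196 in KO, where it was not called (limma, adjusted p 0.616).

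Of 7 other tested cytokine and receptor genes 2 rose and 2 fell in HET CD62Llo, and 1 rose and 2 fell in KO. Il4, the other B cell helper cytokine, was at or near 0 in CD62Lhi and reached 4.03, 5.54 and 2.95 FPKM in HET CD62Llo but 0.606, 1.07 and 0.783 in KO CD62Llo. It was called higher in CD62Llo in both genotypes (limma adjusted p 7.16e-05 and 0.0168), but the KO call was lost after quantile normalization (adjusted p 0.0586). Cxcl13, the ligand of CXCR5, was not tested and had a group mean of at most 0.0510 FPKM. Tox4, a broadly expressed TOX family gene, had means of 20.3 to 24.1 FPKM and was not called, and Tox3 was at most 0.0153 and not tested.

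Of 11 genes that oppose the follicular programme 3 rose and 4 fell in HET CD62Llo, and 2 rose and 1 fell in KO. Klf2, which drives S1pr1 and restrains follicular entry, fell from 161 to 49.2 FPKM in HET and from 163 to 80.7 in KO. Id2, an inhibitor of E proteins, and P2rx7, an ATP receptor that limits follicular cells, rose in both genotypes. Prdm1 rose from 1.34 to 6.08 in HET. In KO Prdm1 went from 1.04 to 1.76 without a call (limma, adjusted p 0.160).

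**Figure D4:**
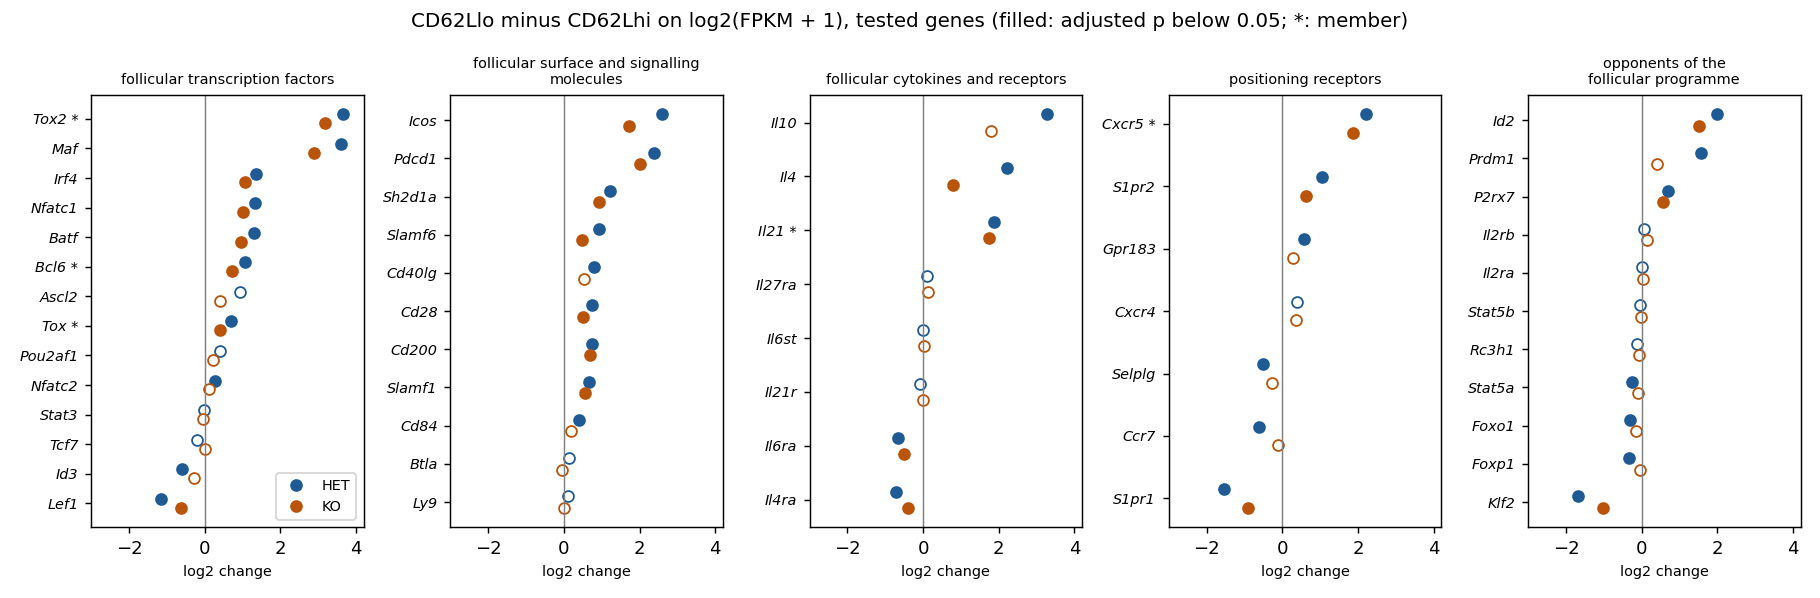
Change from CD62Lhi to CD62Llo on log2(FPKM + 1) of the tested genes of the 5 follicular lists, in HET (blue) and KO (orange); filled points had an adjusted p below 0.05 in limma and asterisks mark members present in a list (1 positioning receptor counted in the text is not drawn). Tox2 and Maf have the largest changes among the transcription factors, and the opposing gene Prdm1 is filled in HET only. The difference of the Prdm1 fraction changes between KO and HET was not called in limma (adjusted p 0.266). Prdm1 was called lower in KO than in HET within CD62Llo, as given below.

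Between genotypes the genes of these lists, opponents included, were read in the same way in CD62Llo Tregs. Of the 47, 6 were called higher and 7 lower in KO, which is 27.7%, beside 0 of 5 members and 4.6% of all genes. Whether the lists differ from the members was not tested. Among the transcription factors Batf was lower (113 against 74.9 FPKM, log2 difference -0.58, limma adjusted p 0.0170) and Lef1 higher (51.0 against 71.8, 0.49, adjusted p 0.0165). Among the surface molecules Icos was lower at less than 50% of its HET level (116 against 52.6 FPKM, -1.12, adjusted p 0.00816), and Slamf6 was lower (102 against 76.5, -0.41, adjusted p 0.0185). Maf (85.4 against 50.3) and Pdcd1 (88.6 against 49.8) were not called, at adjusted p 0.0652 and 0.0831, though the KO libraries of both were below the HET libraries. With the replicate number as a block over all 11 libraries, a pairing the labels do not state, both were called (limma adjusted p 0.0383 and 0.0288). The 47 genes then gave 7 higher and 12 lower. The other genes gained with the block were Cd28 (adjusted p 0.0442), Sh2d1a (0.0151), Nfatc1 (0.0205) and Il10 (0.0497), all lower, and Foxo1 (0.0425), higher, while Id2 was lost (0.0581).

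The positioning receptors gave 2 genes higher and 1 lower in KO CD62Llo. S1pr1 was higher (65.1 against 107 FPKM, limma adjusted p 0.00784) and so was Ccr7 (129 against 196, adjusted p 0.0327), while S1pr2 was lower (9.37 against 5.32, adjusted p 0.00784). Klf2 was higher (49.2 against 80.7, adjusted p 0.00784), as was Foxp1, a factor that keeps T cells quiescent (28.0 against 35.1, adjusted p 0.0223). Prdm1 was lower, with HET libraries at 4.35, 6.57 and 7.32 FPKM and KO libraries at 1.23, 1.65 and 2.39 (log2 difference -1.36, adjusted p 0.00512). Id2 was lower too (55.2 against 36.1, adjusted p 0.0466). Bcl6 and its antagonist Prdm1 thus both had lower KO means, with a call for Prdm1 alone, and the difference between them was not tested. Il4 was lower (4.17 against 0.819 FPKM, log2 difference -1.48, adjusted p 0.00386) and its receptor gene Il4ra higher (42.0 against 52.9, adjusted p 0.0119).

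Of these 13 genes, 6 were called in all 11 fits that left out 1 library each: Icos, Il4, Klf2, Prdm1, S1pr1 and S1pr2. Id2 was called in 1 of 11, Ccr7 in 4, Slamf6 in 7, Batf, Foxp1 and Lef1 in 8 and Il4ra in 10. Without KO CD62Llo replicate 3 the 47 genes gave 5 higher and 5 lower, and without HET CD62Llo replicate 3 they gave 4 and 6. Without replicate 3 of both CD62Llo groups, a choice made after the values were seen, 2 were higher and 4 lower. Icos was not among them (adjusted p 0.0745). In the same libraries the B cell sum was 94.9 to 157 in HET CD62Llo and 131 to 255 in KO CD62Llo. The part of B cell RNA in these genotype differences was not tested. In CD62Lhi Tregs 0 of the 47 genes were called between genotypes.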

How the data were processed

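RNA of the sorted Tregs was extracted with TRIzol and read as single ends of 50 bp from poly(A) libraries, per the labels' protocols. The authors' FPKM were made with Cufflinks 2.1.1 after CASAVA 1.8.2, FastQC and TopHat, on build mm10, per the submitters' processing notes. The settings of these tools are not stated in the sources. Here the values were analysed as log2(FPKM + 1) in limma 3.58.1 (R 4.3.3), after a filter that kept the 11431 genes at 1 FPKM or more in 2 or more of 11 libraries. A linear model with 4 group means and trended empirical Bayes moderation was used, with p-values adjusted by Benjamini-Hochberg over all tested genes and a threshold of 0.05. The fit was first tested on simulated data. Alternatives were another pseudocount, no filter, quantile normalization, median centring, no trend, only the groups compared, a replicate block and leaving out each library.

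The members and gene lists were chosen with earlier results of these data known. Genes were named by a rule: the members, up to 6 genes of a list with the smallest p, the 4 nearest genes of each member among those reaching 5 FPKM in the mean of some group, and check genes. Tcf7 and the genes compared library by library were picked with their values in view. The labels give the groups shared replicate numbers and no common litter or day. In CD62Llo, the deviations of KO and HET libraries with the same number had r of 0.165, 0.153 and 0.148. Those with different numbers had -0.237 to 0.0844. Because deviations were taken from each group mean, the values for different numbers are tied to those for the same number. In CD62Lhi the same-number pairs of KO and HET had 0.0749 and -0.0325, and those with different numbers -0.0875 to 0.0875. Between the fractions of a genotype the same-number pairs had 0.0684 to 0.178, and those with different numbers -0.178 to 0.0858. Any pairing of libraries rests on these correlations alone. Promoter windows came from RefSeq (GRCm38.p6) and gene positions from the files and GENCODE. Some genes of the lists are not reported by name here. Counts were not used here, so no counting interval is given.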

Additional observations from a re-analysis of the deposited data

How the results depend on the processing

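All 5 members were called higher in CD62Llo under every alternative in HET, and 4 or 5 of them under those in KO, where Tox was lost in 5 fits that left out a library. In KO against HET CD62Llo 0 to 1 members were called when a library was left out. The replicate block changed no member call (Bcl6 adjusted p 0.0921, Tox 0.0702 and Tox2 0.128 for KO against HET CD62Llo), and with the block 755 genes were called there in place of 526. Of the members' log2 changes under the alternatives 447 kept direction and side of the threshold. Genes called with 1 library left out ranged from 1916 to 3337 between HET fractions, 1187 to 1974 between KO fractions, 0 to 5 for KO against HET in CD62Lhi, 182 to 610 in CD62Llo and 1 to 5 for the difference of the fraction changes. With only the 2 groups compared, 5 genes were called in CD62Lhi and 109 in CD62Llo. Without replicate 3 of both CD62Llo groups, chosen after the values were seen, the counts were 1, 119 and, for the difference of the fraction changes, 4. That difference had 4 calls without a filter and 3 without a trend. The cause of these changes was not tested.

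Directions reversed only where the value was near 0. For KO against HET in CD62Lhi, leaving out a library gave -0.0769 to 0.267 for Cxcr5, -0.0521 to 0.0185 for Bcl6, -0.0452 to 0.0501 for Il21 and -0.0584 to 0.155 for Tox. Bcl6 was there at 0.0622 with the replicate block, and Il21 at -0.00306 with a pseudocount of 0.1 and -0.0607 after quantile normalization. For KO against HET in CD62Llo, Il21 ranged from -0.562 to 0.168 with a library left out, and the difference of its fraction changes from -0.565 to 0.166. The few fragments behind Il21 in CD62Lhi, where its level is low, and the small groups limit what these comparisons can show.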

Other observations

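Ascl2, a transcription factor that can switch on Cxcr5, was low in all groups and was singled out after its values were seen. It had 1.42, 2.46 and 0.200 FPKM in HET CD62Llo, 0.328, 0.232 and 0.612 in KO CD62Llo and at most 0.216 in the 5 CD62Lhi libraries. The drop in HET CD62Llo replicate 3 is in the same library in which the 5 members were lowest, whereas in KO CD62Llo replicate 3 was the highest for Ascl2. It was not called between fractions (limma, adjusted p 0.0801 in HET and 0.425 in KO). Il10, an anti-inflammatory cytokine of activated Tregs, rose in HET CD62Llo from 0.410 to 14.03 FPKM (adjusted p 0.00445) and had means of 0.0615 and 3.51 in KO without a call (adjusted p 0.0633).

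The authors' deposited table of 1 pooled FPKM per group gave Cxcr5 as 12.9 and 61.3 in HET CD62Lhi and CD62Llo and 13.9 and 52.6 in KO. In the authors' deposited table Bcl6 was at 9.02, 19.1, 8.95 and 14.9, Il21 at 0.175, 4.84, 0.168 and 3.92, Tox2 at 0.912, 24.2, 0.814 and 16.5 and Tox at 36.4, 55.9, 37.5 and 48.0, in the same order of groups. These pooled values were above the means of the libraries used here for every member and group. Which libraries entered them, and whether HET CD62Lhi replicate 3 did, is not stated. The left-out HET CD62Lhi replicate 3 listed all 5 members at 0, with 589 of 23846 entries above 0.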
